A study of Saccharomyces cerevisiae with 50 samples.

Results

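The proteasome genes of budding yeast were followed through 2 synchronous cell cycles. Members were all rows of the deposited value table whose ORF carries a standard gene symbol of PRE, RPN, RPT or PUP followed by a digit, or SCL1, which gave 34 of the 6204 ORFs in the table. Of these, 14 encode subunits of the core particle and 18 encode subunits of the regulatory particle. The other 2, RPN4 and RPN14, carry a matching symbol but encode no subunit: RPN4 is a transcription activator of proteasome genes and RPN14 is a chaperone of regulatory particle assembly. They are described apart from the 32 subunits. SEM1, a lid subunit also called RPN15, is not matched by the symbols and was placed in a list of related genes.

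The proteasome degrades proteins that carry ubiquitin chains, among them the cyclins and inhibitors whose removal drives the cell cycle. Its barrel-shaped core particle is built of outer rings of alpha subunits, which gate the entry, and inner rings of beta subunits, some of which hold the proteolytic sites. The regulatory particle caps the barrel with a base, whose ATPases unfold substrates, and a lid, which removes ubiquitin. In yeast many of these genes share the activator Rpn4, itself a short-lived substrate of the proteasome.

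All samples came from strain W303. Cells were held in G1 with alpha factor, the mating pheromone that blocks the cycle before S phase, released into YEPD, the rich glucose medium, and collected at 25 time points 5 min apart from 0 to 120 min. Total RNA of each time point was hybridised to 2 two-channel arrays, once in Cy3 (replicate 1) and once in Cy5 (replicate 2), against RNA of an asynchronous culture grown in the same medium. No label names a second synchronised culture, so the 2 arrays of a time point are a technical dye swap and were averaged to 1 value. Tests therefore measure the spread between time points of 1 course. Values are log2 ratios of sample over reference. The table holds no level per gene, so members were compared by ratio and never by abundance, and in a bulk culture a lower ratio from fewer cells with the transcript cannot be told apart from less transcript per cell.

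The direction of the ratios and their base were inferred from the values. The 2 arrays of a time point correlated negatively over all ORFs as deposited (median r = -0.472), as a ratio of fixed dyes does when the dyes are swapped. After turning, 8 of 8 pheromone-induced genes lay above 0 at 0 min, by 3.40 to 5.79 on the log2 scale. The arrays of 105 min stood apart most, with a root mean square deviation of 0.587 from the mean of the neighbouring times over all ORFs. Those of 45 min were close to this, at 0.538. The other times that have neighbours on both sides had 0.218 to 0.408. Dates in the sample titles changed between 55 and 60 min in replicate 1 and split replicate 2 into 6 sets, with 0 min and 105 min each alone. Among the 34 genes, 2 array values were missing (PUP2 at 70 min and RPN14 at 30 min, which rest on 1 array each). One value lay at the deposited limit: RPN8 at 10 min was -6.64 on one array and -0.07 on the other.

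Proteasome subunit transcripts moved together and by little. They were above the reference at the moment of release and lower 5 min later. They were at their lowest of the first hour at 25 to 35 min, and near the reference again at 60 to 70 min. Over the whole course the regulatory mean was lowest at 105 min, at -0.26, on arrays that stood apart. The means of the 14 core genes at 0, 5, 25, 30, 35, 60 and 70 min were 0.30, 0.01, -0.22, -0.18, -0.15, 0.02 and 0.09. The means of the 18 regulatory genes at those times were 0.24, -0.03, -0.25, -0.23, -0.21, 0.05 and 0.02. At release 27 of the 32 subunits lay above 0, at 25, 30 and 35 min only 1, 1 and 2 did, and at 60 min 21 did. Of all ORFs, 53.9% lay above 0 at 0 min, 47.5%, 49.5% and 51.6% at 25, 30 and 35 min, and 52.3% at 60 min.

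**Figure D1:**
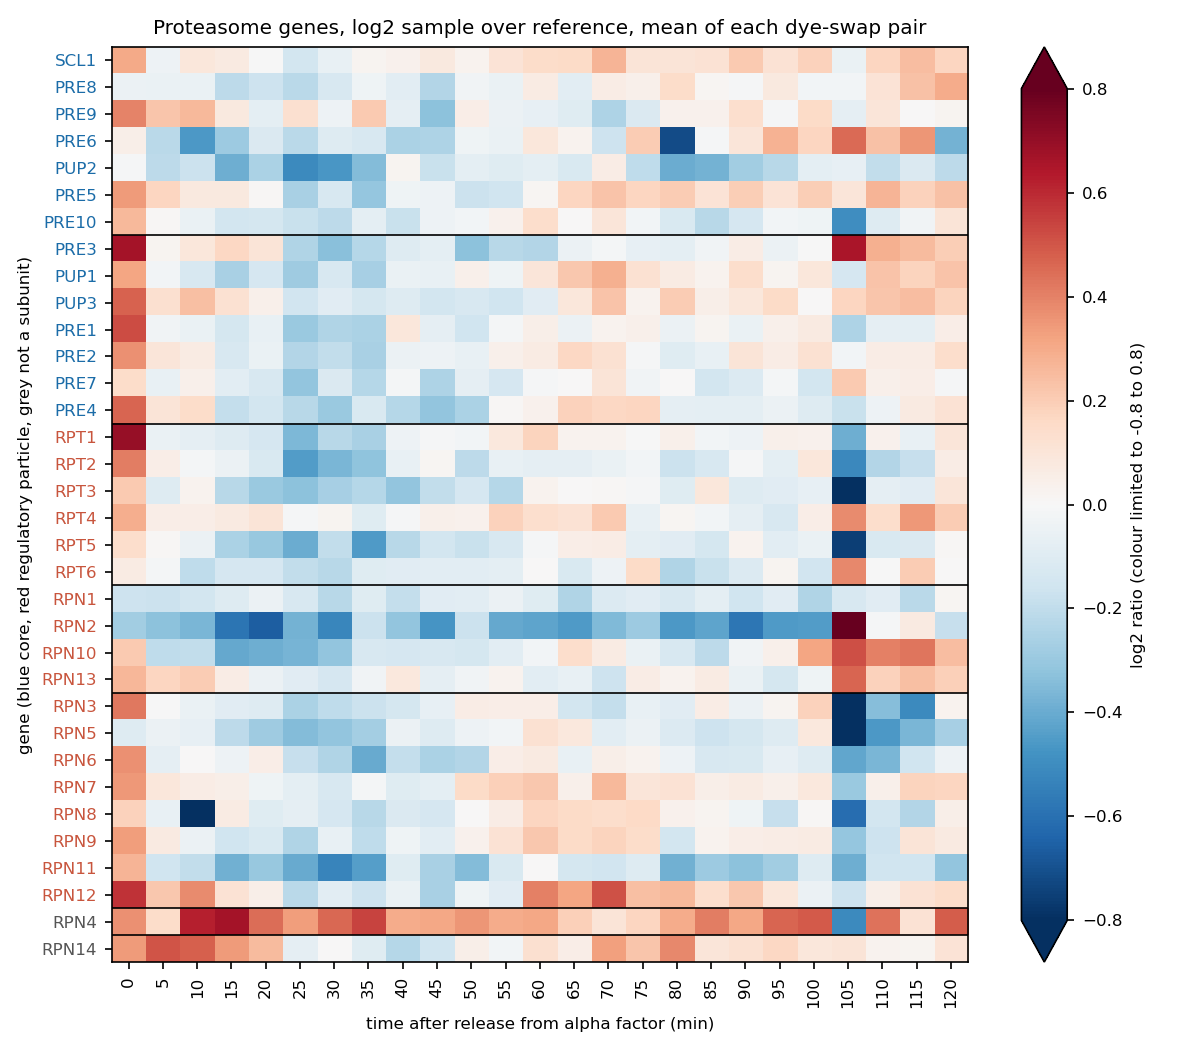
Each row is 1 of the 34 genes and each column a time in min after release, with colour giving the log2 ratio of sample over reference, the mean of the dye-swap pair, limited to -0.8 to 0.8. Rows run from the alpha ring and beta ring (blue names) through the base ATPases, base non-ATPases and lid (red names) to RPN4 and RPN14 (grey names). The first column is mostly red, with 27 of 32 subunits above 0 (53.9% of all ORFs). The columns of 25 to 35 min are mostly blue, with 1 or 2 subunits above 0 (47.5% to 51.6% of all ORFs).

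Within the first 60 min, 26 of the 32 subunits had their highest value at 0 min, against 20.6% of all 6204 ORFs, and 23 had their lowest value at 25, 30 or 35 min, against 18.8% of all ORFs. These windows were chosen after the courses were seen and carry no test. The median over subunits was 0.296 at 0 min, -0.0185 at 5 min, -0.216 for the mean of 25 to 35 min and 0.0338 for the mean of 60 to 70 min. The difference between 0 and 5 min was seen in both dyes: with the sample in Cy3, where both times share a title date, 29 of 32 subunits were higher at 0 min, with a median difference of 0.203. With the sample in Cy5, where 0 min has a title date of its own, 28 of 32 were higher, with a median difference of 0.449. Among all ORFs the share higher at 0 min was 51.5% in Cy3 and 60.5% in Cy5. Both arrays of 0 min lay above both arrays of 5 min for 20 of 32 subunits, 7 of 14 in the core and 13 of 18 in the regulatory particle, against 20.4% of the 6158 ORFs with all 4 values.

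All 3 time points from 25 to 35 min lay below all 3 time points from 60 to 70 min for 23 of 32 subunits (71.9%), against 22.7% of all ORFs. The count was 10 of 14 in the core and 13 of 18 in the regulatory particle, so the low was about as frequent in both. By ring and subcomplex, it was seen in 4 of 7 alpha subunits, 6 of 7 beta subunits, 5 of 6 ATPases, 1 of 4 base non-ATPases and 7 of 8 lid subunits. Title dates differ between these windows. Within the same dates, 25 to 35 min lay wholly below 45 to 55 min for 16 of 32 subunits, 6 in the core and 10 in the regulatory particle, against 19.7% of all ORFs, and all 6 ATPases were among them. A second low, one cycle later, was seen in fewer: 90 to 100 min lay wholly below 60 to 70 min for 9 of 32 subunits, 3 in the core and 6 in the regulatory particle, against 14.6% of all ORFs.

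**Figure D2:**
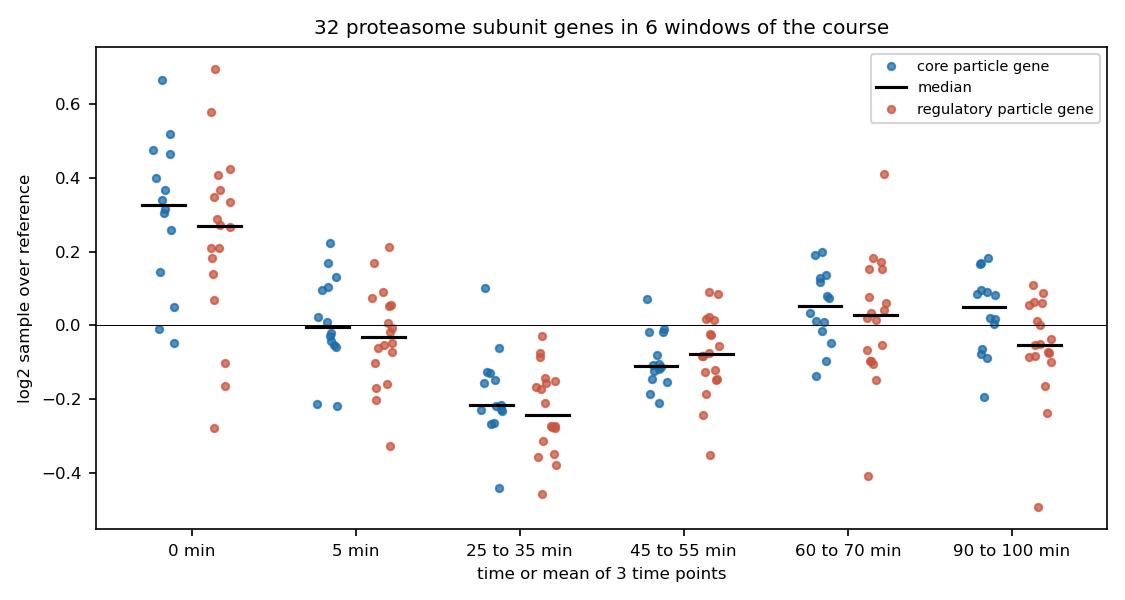
Each point is 1 of the 32 subunit genes, with the log2 ratio of sample over reference on the vertical axis and 6 single times or means of 3 time points on the horizontal axis. Black bars are medians of the core genes (blue) and the regulatory genes (red). Both groups are highest at 0 min, lowest at 25 to 35 min (median over all subunits -0.216) and near 0 at 60 to 70 min (median 0.0338).

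A cosine with a period of 66 min was fitted to each ORF with a linear trend, and its amplitude (the height above the mean) was tested with limma over all ORFs at an adjusted p of 0.05. Of the 34 members, 16 were periodic (47.1%), against 33.7% of all ORFs. They were 6 of 14 core genes, 9 of 18 regulatory genes and RPN14. By ring and subcomplex they were 3 of 7 alpha subunits, 3 of 7 beta subunits, 4 of 6 ATPases, 0 of 4 base non-ATPases and 5 of 8 lid subunits. At an unadjusted p under 0.05, 21 members passed (61.8%), against 43.4% of all ORFs. The amplitudes were small: the median over the 15 periodic subunits was 0.150, with a range of 0.108 to 0.272, against a median of 0.214 over the 2089 periodic ORFs. Over all 32 subunits the median amplitude was 0.138, against 0.135 over all ORFs. Without replicate 1, 7 members were periodic, PRE4, PRE10, RPN7, RPN9, RPN12 and RPN14 of the 16 and RPN8 in addition. With errors correlated between successive time points 10 of the 16 passed, and RPT1, RPT3, RPT4, RPT5, PRE2 and RPN11 did not. Of the 34 members, 7 passed without replicate 1 (23.9% of all ORFs) and 10 with correlated errors (29.3%). Without 0 to 15 min 11 passed (36.1%), and with a period of 60 min 12 did (35.2%). In these settings the share of members was close to or below that of all ORFs. In the other settings it lay above, as with title date as a term (17 of 34 against 32.1%).

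The fitted peaks of the 15 periodic subunits ranged from 56.4 min of one period to 5.48 min of the next, near the start of a 66 min period. Of the 2089 periodic ORFs, 20.8% peaked in the same range, which was set by the subunits themselves and carries no test. The earliest was PUP2, the alpha 5 subunit, and the latest was PRE5, the alpha 6 subunit.

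**Figure D3:**
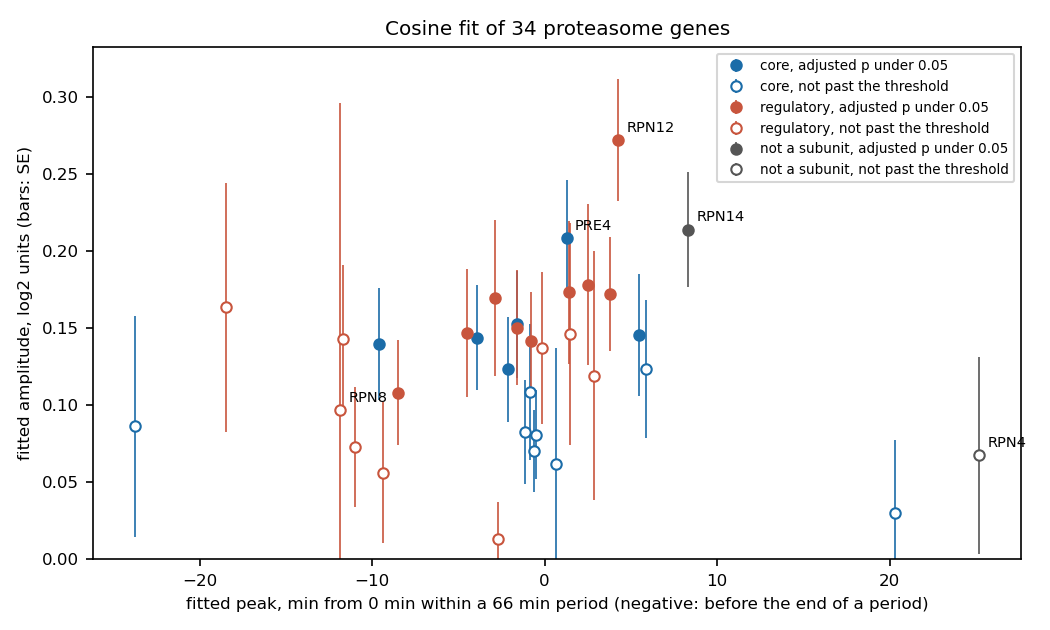
Each point is 1 of the 34 genes, with the fitted peak time in min from 0 min on the horizontal axis (negative values lie before the end of a 66 min period) and the fitted amplitude in log2 units on the vertical axis. Filled points passed an adjusted p of 0.05 and bars are SE. Filled points of the core (blue) and the regulatory particle (red) gather near 0 min, with RPN12 highest at 0.272, and RPN14 (grey) follows at 8.34 min.

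In the alpha ring, the periodic genes were PUP2, PRE5 and PRE10. PRE10, the alpha 7 subunit, had an amplitude of 0.144 ± 0.034 (SE, n = 25 time points; limma adjusted p = 0.00718), with a median of -0.04, a high of 0.26 at 0 min and a low of -0.50 at 105 min. PUP2 had an amplitude of 0.140 ± 0.037 (limma adjusted p = 0.0147). It held the deepest low of the core, at -0.440 for the mean of 25 to 35 min against -0.0470 for 60 to 70 min. PRE5 had an amplitude of 0.145 ± 0.040 (limma adjusted p = 0.0197), with 0.34 at 0 min and its lowest value, -0.31, at 35 min. With title date as a term its amplitude was 0.0887 (limma adjusted p = 0.274), and it was called in 8 of 13 settings. SCL1, the alpha 1 subunit, did not pass (amplitude 0.0809 ± 0.0290, limma adjusted p = 0.0875), although its 25 to 35 min values all lay below both later windows.

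PRE9, the alpha 3 subunit and the one alpha subunit whose gene yeast can live without, went its own way. Its values were 0.40, 0.22, 0.26 and 0.07 at 0, 5, 10 and 15 min and -0.10, -0.25, -0.12 and 0.04 at 65, 70, 75 and 80 min. The earlier values all lay above the later ones. The mean was 0.239 early and -0.107 late, a difference of 0.346 ± 0.091 (SE, n = 4 time points each; limma adjusted p = 0.0370). As a mean of both arrays, PRE9 also had no low at 25 to 35 min, where it averaged 0.10, the highest of all subunits. At 25, 30 and 35 min it had 0.22, 0.20 and 0.29 in Cy3, but 0.04, -0.27 and 0.13 in Cy5. The 2 dyes of PRE9 correlated weakly over time (r = 0.188, n = 25). It was the only member past the threshold in this comparison, which set 0 to 15 min against about 1 period later: 1 of 34 was higher early, against 9.4% of all ORFs, and 0 of 34 were lower, against 6.16%. At an unadjusted p under 0.05, 2 members passed (5.88%), against 30.3% of all ORFs. The call was lost without either replicate and when any of 0, 5, 10, 65, 70 or 75 min was left out. Title dates differ between the sides of this comparison, so date and time cannot be told apart.

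The last alpha subunits, PRE6 (alpha 4) and PRE8 (alpha 2), were not periodic. PRE6 ranged from -0.71 at 80 min to 0.45 at 105 min. The low rests on 1 array, with 0.14 in Cy3 and -1.56 in Cy5, and the high was 0.16 in Cy3 and 0.75 in Cy5. The 2 dyes of PRE6 did not correlate over time (r = -0.00377, n = 25), the median over subunits being 0.630 and over all ORFs 0.497. PRE8 ranged from -0.23 at 45 min to 0.30 at 120 min.

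In the beta ring, PRE4 (beta 7), PUP1 (beta 2, the trypsin-like site) and PRE2 (beta 5, the chymotrypsin-like site) were periodic. PRE4 had values of 0.46 at 0 min, -0.22, -0.29 and -0.12 at 25, 30 and 35 min, -0.31, -0.25 and 0.01 at 45, 50 and 55 min, and 0.03, 0.18 and 0.17 at 60, 65 and 70 min. It thus stayed below the reference from 15 to 50 min. Its amplitude was 0.209 ± 0.038 (SE, n = 25 time points; limma adjusted p = 0.000602), a 1.34-fold change from trough to peak, the largest in the core.

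PUP1 had an amplitude of 0.153 ± 0.035 (limma adjusted p = 0.00506). Its mean was -0.225 at 25 to 35 min and 0.198 at 60 to 70 min, with no overlap of the time points. PRE2 had an amplitude of 0.123 ± 0.034 (limma adjusted p = 0.0220) and, as a description, the highest correlation of any subunit with the mean of the others (r = 0.893, n = 25 time points of shared arrays). Without 0 to 15 min its amplitude was 0.0758 (limma adjusted p = 0.120).

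Of the beta subunits that were not periodic, PRE3, PRE1 and PUP3 had high values at 0 min. PRE3 (beta 1, the caspase-like site) had 0.66 at 0 min, with 0.46 in Cy3 and 0.87 in Cy5, and 0.02 at 5 min, a 1.56-fold difference. PRE1 (beta 4) had 0.52 at 0 min and its lowest value, -0.30, at 25 min. PRE7 (beta 6) had its lowest value, -0.31, at 25 min as well, and its highest, 0.21, at 105 min.

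PUP3 (beta 3) was lower in the middle of the first cycle than just after release. Its values were 0.47, 0.13, 0.24 and 0.12 at 0, 5, 10 and 15 min and -0.10, -0.15, -0.13 and -0.16 at 40, 45, 50 and 55 min. The windows did not overlap. The difference was -0.376 ± 0.088 (SE, n = 4 time points each; limma adjusted p = 0.0229).

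This comparison of 40 to 55 min with 0 to 15 min lies within one title date in replicate 1 and, apart from 0 min, in replicate 2. PUP3, RPN12 and RPN14 fell, 3 of 34 members against 9.48% of all ORFs, and 0 of 34 rose, against 8.69%. At an unadjusted p under 0.05, 8 members passed (23.5%), against 33.6% of all ORFs. With single arrays, time point as a block and the replicate number as a term, the count was 7, against 25.9% of all ORFs. This added PRE9, PRE5, PRE3 and PRE4. With each array centred on its median the count was 5, against 19.2%. Without replicate 1 the count was 0, against 9.86% of all ORFs. Only RPN14 passed when 10, 45, 50 or 55 min was left out, against 10.3% to 12.8% of all ORFs. Without 40 min, PUP3 and RPN14 passed, against 13.4% of all ORFs, and without 15 min 5 members did, against 18.2%.

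The base of the regulatory particle holds 6 ATPases, Rpt1 to Rpt6, which form the ring that unfolds substrates. RPT3, RPT5, RPT1 and RPT4 were periodic. RPT3 had an amplitude of 0.178 ± 0.052 (SE, n = 25 time points; limma adjusted p = 0.0300). RPT5 had 0.173 ± 0.046 (limma adjusted p = 0.0172), and its mean was -0.347 at 25 to 35 min and 0.0344 at 60 to 70 min. Both had their lowest value at 105 min, at -0.86 for RPT3 and -0.75 for RPT5, on arrays that stood apart. Without 105, 110 and 115 min their amplitudes were 0.138 (limma adjusted p = 0.00801) and 0.141 (limma adjusted p = 0.00639), and that of RPT1 was 0.162. None of the 4 passed without replicate 1, without 0 to 15 min or with correlated errors. With a period of 60 min only RPT4 passed, and with centred arrays RPT4 did not (limma adjusted p = 0.0712).

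RPT1 had the highest value of any subunit at 0 min, 0.69, with 0.83 in Cy3 and 0.56 in Cy5. At 5 min it was -0.05, so that 0 min was 1.68-fold higher, and at 25, 30 and 35 min it was -0.36, -0.22 and -0.26. Its amplitude was 0.170 ± 0.050 (limma adjusted p = 0.0339), and 0.118 without 0 min (limma adjusted p = 0.0374). RPT4 ranged from -0.13 at 95 min to 0.38 at 105 min, with a smaller amplitude of 0.108 ± 0.034 (limma adjusted p = 0.0477). RPT2 (amplitude 0.137 ± 0.050, limma adjusted p = 0.0905) and RPT6 (0.0729 ± 0.0391, limma adjusted p = 0.317) did not pass, although RPT2 had a mean of -0.378 at 25 to 35 min.

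The base also holds 4 subunits that are not ATPases. RPN1 and RPN2 are large scaffolds, and RPN10 and RPN13 are ubiquitin receptors. None was periodic, and RPN10 alone had its 25 to 35 min values wholly below those of 60 to 70 min. RPN1 stayed between -0.24 and 0.01 over the whole course, with a median of -0.11, and its SD over time, 0.0633, was the lowest of the 34 genes. Its 2 dyes did not follow each other (r = -0.290, n = 25 time points), so no change of RPN1 could be detected here.

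RPN2 lay below the reference at 23 of 25 time points, with a median of -0.38. Its exceptions were 105 min, at 0.93 (0.59 in Cy3 and 1.27 in Cy5), and 115 min, at 0.07. Against the mean of the other subunits, RPN2 (r = -0.068), RPN1 (r = -0.059) and RPN8 (r = 0.066) had the lowest correlations over the 25 time points. That of RPN8 was 0.469 without 10 min, where 1 of its arrays lay at the limit, and that of RPN2 was 0.214 without 105 to 115 min.

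RPN10 had its lowest value, -0.41, at 15 min and was high late. Its values at 100, 105, 110, 115 and 120 min were 0.32, 0.51, 0.41, 0.43 and 0.25. At 100 min its arrays differed, with -0.09 in Cy3 and 0.72 in Cy5, while from 105 min both were above 0. RPN13 had 0.47 at 105 min and lay between -0.16 and 0.27 at all other times.

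The lid had the largest oscillation of all. RPN12, a lid subunit that is added last in lid assembly, had values of 0.58, 0.21, 0.38 and 0.12 at 0, 5, 10 and 15 min, -0.22, -0.08 and -0.16 at 25, 30 and 35 min, -0.26, -0.04 and -0.09 at 45, 50 and 55 min, and 0.40, 0.32 and 0.51 at 60, 65 and 70 min. It was high after release and again from 60 min, and low between, with both arrays of each time on the same side of 0 at all of 60, 65 and 70 min. The amplitude was 0.272 ± 0.040 (SE, n = 25 time points; limma adjusted p = 5.64e-05), a 1.46-fold change from trough to peak, with the peak at 4.26 ± 1.51 min. Its fall from 0 to 15 min to 40 to 55 min was -0.431 ± 0.110 (SE, n = 4 time points each; limma adjusted p = 0.0314). In the second cycle its lowest values were -0.04 at 100 min and -0.17 at 105 min, the latter on arrays that stood apart. The cosine of RPN12 did not differ between the cycles past the threshold (limma adjusted p = 0.458).

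RPN6, RPN9, RPN11 and RPN7 were periodic too. RPN6, which clamps lid and core together, had an amplitude of 0.172 ± 0.037 (limma adjusted p = 0.00299) and a low of -0.40 at 35 min in the first cycle. RPN9 had 0.150 ± 0.037 (limma adjusted p = 0.0102) and RPN7 had 0.142 ± 0.032 (limma adjusted p = 0.00461). RPN11, the deubiquitinase of the lid, had 0.147 ± 0.042 (limma adjusted p = 0.0249) and the deepest low of any subunit at 25 to 35 min, with a mean of -0.456. RPN11 was below the reference at most times, with a median of -0.26.

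RPN3, RPN5 and RPN8 did not pass. RPN3 had 0.42 at 0 min and -0.67 and -1.79 on the 2 arrays of 105 min. RPN5 had -1.21 and -1.28 there and, as a mean of both arrays, nothing below -0.46 at any other time. Its next lowest array value was -0.61, in Cy3 at 110 min. RPN8, the partner of RPN11, had an amplitude of 0.0969 ± 0.199 (limma adjusted p = 0.916) with the limit value kept, and 0.167 (limma adjusted p = 0.00657) with it set to missing. With that value missing, 17 members were periodic.

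RPN4 did not follow the subunits. Its lowest, median and highest values were -0.51 (105 min), 0.33 and 0.66 (15 min), and apart from 105 min it lay above the reference at all times. Its values at 0, 5, 10, 15, 25, 35 and 70 min were 0.37, 0.15, 0.62, 0.66, 0.33, 0.54 and 0.10. At 25 to 35 min, when the subunits were at their lowest of the first hour, RPN4 averaged 0.444, and at 60 to 70 min it averaged 0.201. It was not periodic (amplitude 0.0674 ± 0.0641, limma adjusted p = 0.671). With the mean of the 32 subunits at the same time its correlation was -0.0886 (n = 25 time points), and -0.326 (n = 22) without 105 to 115 min. With the subunit mean 15 min later it was -0.461 (n = 22) and -0.546 (n = 18), the lowest of 7 lags from 0 to 30 min. Time points share a culture, so these are descriptions. The value at 105 min was -0.11 in Cy3 and -0.91 in Cy5.

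RPN14, which holds base ATPases during assembly, was high after release and low in the middle of the cycle. Its values were 0.34, 0.50, 0.48 and 0.34 at 0, 5, 10 and 15 min and -0.23, -0.16, 0.05 and -0.02 at 40, 45, 50 and 55 min. The windows did not overlap, and the difference was -0.506 ± 0.084 (SE, n = 4 time points each; limma adjusted p = 0.00587). Without replicate 1 it was -0.281 (limma adjusted p = 0.0734). Its highest value was that of 5 min, where only 1 of its 2 arrays was above that of 0 min. Its amplitude was 0.214 ± 0.038 (SE, n = 25 time points; limma adjusted p = 0.000457), with the peak at 8.34 ± 1.79 min.

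**Figure D4:**
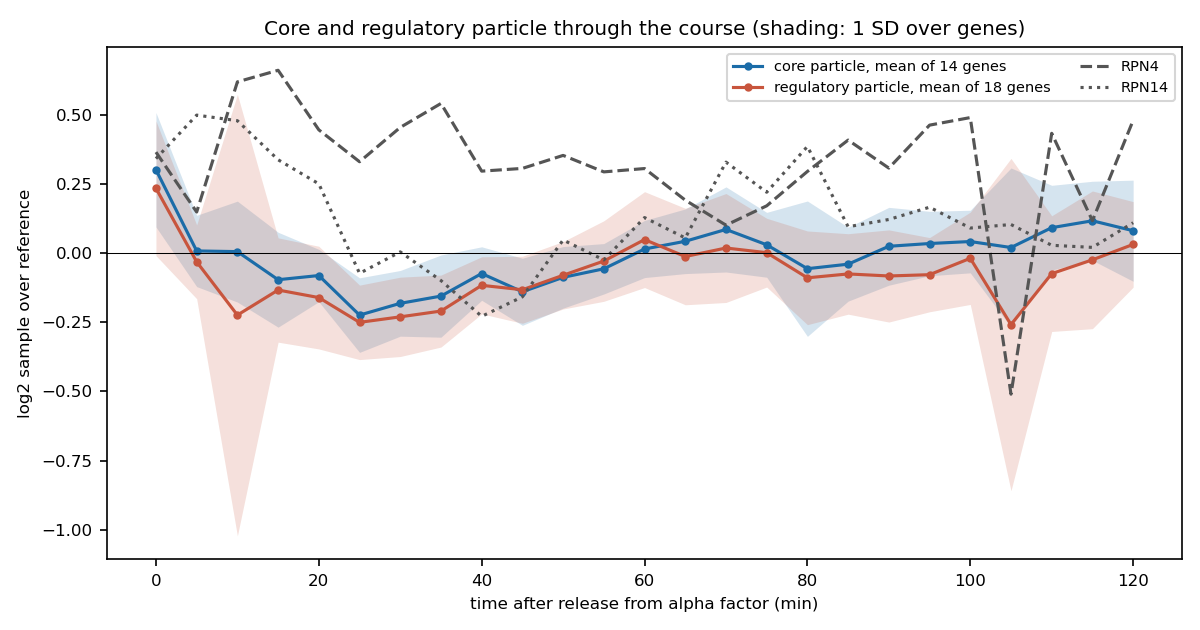
The mean log2 ratio of the 14 core genes (blue) and the 18 regulatory genes (red) is plotted against time after release in min, with shading of 1 SD over genes, and RPN4 (dashed) and RPN14 (dotted) as single genes. The 2 particles run together, from 0.30 and 0.24 at 0 min to -0.22 and -0.25 at 25 min, and part at 10 min, where 1 value of RPN8 lay at the limit, and at 105 min (0.02 and -0.26), while RPN4 stays above 0 except at 105 min.

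Core and regulatory particle followed nearly the same course. Their means correlated over the 25 time points with r = 0.781, and with r = 0.943 over the 21 that remain without 10, 105, 110 and 115 min. The core was higher at 21 of 25 time points, by a mean of 0.0674 ± 0.0735 (SD over 25 time points), and by 0.0414 ± 0.0380 (SD over 21) without those 4. The difference ranged from -0.0341 at 60 min to 0.279 at 105 min. It is a difference of ratios to the reference and carries no test, since the genes were chosen as a list. The SD over genes at a time point (0.207 in the core and 0.244 in the regulatory particle at 0 min) was larger than this difference. It was not even over the regulatory particle. At 0 min the means were 0.303 in the core, 0.301 in the ATPases, 0.300 in the lid and 0.009 in the base non-ATPases. At 70 min they were 0.087, 0.035, 0.088 and -0.141 in that order. At 35 min the order differed, with -0.155, -0.242, -0.235 and -0.106. At 105 min they were 0.021, -0.293, -0.582 and 0.445.

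Within the core, the median correlation over 91 pairs of genes was 0.445. Within the regulatory particle it was 0.186 over 153 pairs, and between the particles it was 0.317 over 252 pairs, while all pairs of ORFs had a median of 0.0026. Without 10, 105, 110 and 115 min the medians were 0.583, 0.528 and 0.532, and with 0 min also left out they were 0.503, 0.411 and 0.426. The regulatory particle stayed the lower of the 2, by a smaller margin. All pairs share the same arrays, and these are descriptions over 25, 21 or 20 time points.

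At 105 min the particles parted most. Of the 32 subunits, 10 deviated by more than 0.5 from the mean of 100 and 120 min, 3 of 14 in the core and 7 of 18 in the regulatory particle, against 32.5% of all ORFs, so such deviations were as common in the whole table. RPN3, RPN5, RPT3 and RPT5 were low and RPN2 was high on both arrays. PRE3 was high on both, at 0.72 in Cy3 and 0.58 in Cy5. The cause was not tested.

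**Figure D5:**
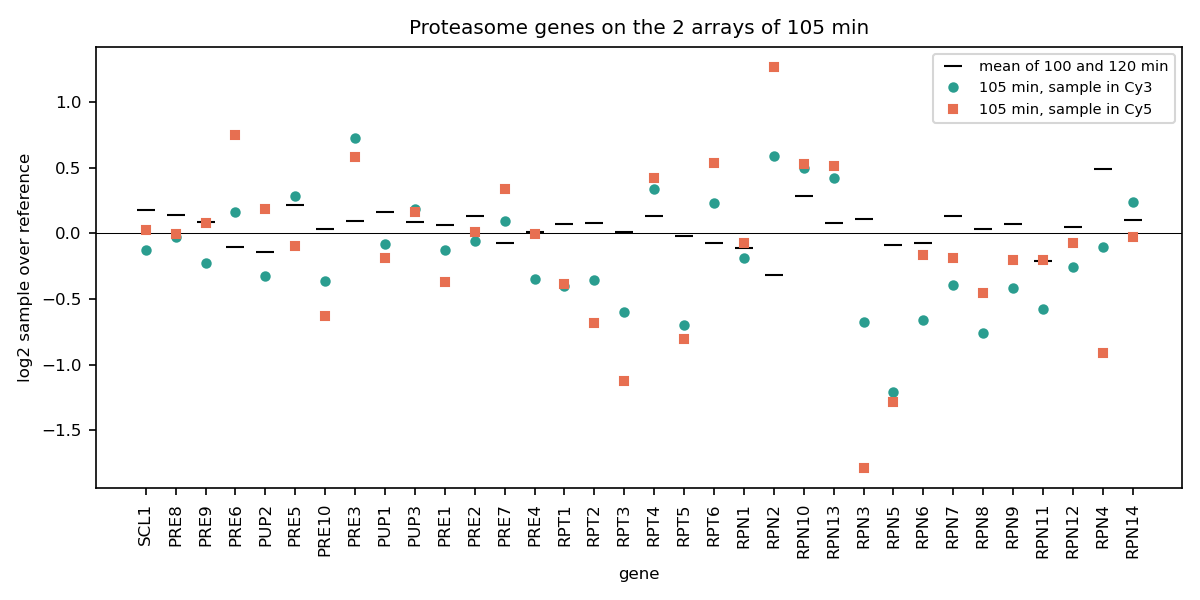
For each of the 34 genes on the horizontal axis, the log2 ratio at 105 min is shown for the array with the sample in Cy3 (green circles) and in Cy5 (orange squares), beside the mean of 100 and 120 min (black bars). Most core genes lie near their bar, while RPN3 (-0.67 and -1.79) and RPN5 (-1.21 and -1.28) lie far below and RPN2 (0.59 and 1.27) far above.

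The course differed between the cycles for 10 of 34 members (29.4%), against 30.4% of all ORFs, in a limma test of the cosine terms between 0 to 55 min and 60 to 115 min. They were PRE9, PRE3, PUP3, PRE1 and PRE2 in the core, RPT1, RPT2, RPN10 and RPN13 in the regulatory particle, and RPN14, with limma adjusted p from 0.0123 (PRE2) to 0.0487 (RPN13). The median amplitude over the 32 subunits was 0.191 in the first cycle and 0.0911 in the second, while over all ORFs it was 0.199 and 0.187. The amplitude was lower in the second cycle for 7 of the 10. For RPT1 it was 0.312 and 0.0921, for RPN14 0.310 and 0.101, and for PRE2 0.201 and 0.110. It was higher in the second cycle for PRE9 (0.0828 and 0.192), PRE3 (0.211 and 0.269) and RPN10 (0.208 and 0.328). Without 105, 110 and 115 min the sign of the amplitude difference turned for PUP3 (0.200 and 0.0515 with those times), RPN13 (0.161 and 0.109) and RPN10. The number of members past the threshold was 2 (PRE3 and PRE2) without replicate 1, against 19.4% of all ORFs. It was 8 without replicate 2, against 23.8%, and 1 (RPN14) with a period of 60 min, against 15.9%. Title dates changed at 60 min in replicate 1, so cycle and date cannot be told apart there.

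A dye difference that keeps its sign when the dyes are swapped was found for 16 of the 34 genes. It was higher in Cy5 for 14 (41.2%), 7 in the core and 7 in the regulatory particle, against 32.3% of all ORFs, and higher in Cy3 for RPN4 and RPN3 (5.88%), against 14.3%. The largest were RPN10 at 0.140 ± 0.021, RPN4 at -0.137 ± 0.018 and PUP2 at 0.135 ± 0.019 on the log2 scale (SE, n = 25 pairs; limma adjusted p of 6.24e-06, 1.90e-06 and 4.76e-06). These values are of the order of the amplitudes above, and averaging the 2 arrays of a time point cancels them. PUP2 at 70 min and RPN14 at 30 min, with 1 array each, keep them.

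A list of 37 other genes of the pathway held 21 that were periodic, against 33.7% of all ORFs: 5 of 9 for assembly and localisation, 4 of 6 associated with the proteasome, 5 of 6 of the CDC48 group, 2 of 6 that control RPN4, 2 of 3 ubiquitin shuttles and 3 of 7 genes of ubiquitin and its enzymes. ECM29, a tether of core and regulatory particle, had the largest amplitude at 0.309 ± 0.042 (limma adjusted p = 2.9e-05), with a value of -0.660 for 25 to 35 min. POC4, a chaperone of core assembly, had 0.279 ± 0.042 and BLM10, an activator of the core, had 0.268 ± 0.076. NAS2, a chaperone of base assembly, had 0.264 ± 0.050, UBA1, the ubiquitin-activating enzyme, had 0.262 ± 0.028, and SHP1, a cofactor of CDC48, had 0.236 ± 0.041. The peaks of ECM29 (60.1 min), BLM10 (63.1 min), NAS2 (1.53 min), UBA1 (61.3 min) and SHP1 (1.55 min) fell within the range of the subunits, and that of POC4 (43.6 min) did not. Outside it also lay UBC4 (42.6 min), PDR1 (42.6 min), HSF1 (45.2 min), UFD4 (53.5 min) and RAD23 (54.1 min). So did CDC48 (5.84 min), DOA1 (8.04 min) and NPL4 (9.64 min), while the remaining periodic genes of the list fell within it. Of all periodic ORFs, 20.8% did.

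NAS2 and DOA1 fell between 0 to 15 min and 40 to 55 min, and SPG5, PDR1 and HSF1 rose. These are 2 of 37 (5.41%) and 3 of 37 (8.11%), no more than the 9.48% and 8.69% of all ORFs. NAS2 fell by 0.444 (limma adjusted p = 0.0118) and DOA1, a cofactor of CDC48, fell by 0.352 (limma adjusted p = 0.0171). SPG5, a regulator of the proteasome, rose by 0.588 (limma adjusted p = 0.0035), and PDR1 and HSF1, activators of RPN4, rose by 0.408 and 0.317 (limma adjusted p = 0.0361 and 0.0298). Of the 37, 0 passed the comparison of 0 to 15 min with 65 to 80 min, against 9.4% of all ORFs higher early and 6.16% lower. At an unadjusted p under 0.05, 5 of the 37 passed, against 30.3% of all ORFs.

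Some members lie close to each other in the genome, by the gene order of the RefSeq yeast assembly. PRE4 and RPN12, with 1 gene between them, had a correlation of 0.825 over the 25 time points. RPT4 and RPN8, also with 1 gene between, had 0.0058 with the limit value of RPN8 kept, and PRE2 and RPN7, with 4 between, had 0.620.

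Outside both lists, the ORFs whose course was most like the mean of the 32 subunits were FAR1 (r = 0.853), VHC1 (0.844), PRD1 (0.843), PHB2 (0.843), INP52 (0.817), PHM8 (0.817), NSG2 (0.808), IDI1 (0.793), HRD1 (0.792) and IRA1 (0.790), each over 25 time points that share their arrays. FAR1, an inhibitor of the cyclin-dependent kinase in pheromone arrest, had a far larger swing, with 1.84 at 0 min, -2.03 for 25 to 35 min and 0.192 for 60 to 70 min. PHB2, a prohibitin of the mitochondrial inner membrane, had 0.276, -0.395 and 0.0255, a swing close to that of the subunits.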

How the data were processed

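Total RNA of 25 time points was measured on 50 two-channel arrays. The authors' deposited values were log10 ratios of unstated dye direction. The limit of 2 either way, the negative correlation of dye-swapped arrays (r from -0.673 to -0.196) and the pheromone genes gave the base and the direction, Cy5 over Cy3, as inferences. The scanner, background correction and normalization are not given in the sources used here. Array medians lay between -0.0481 and 0.115 after conversion to log2, so no further scaling was applied to the deposited values. Of 6217 rows, 13 whose ID was not an ORF name were left out, and 5704 of 6204 ORFs matched a RefSeq symbol. Over all arrays 709 values lay at the limit and 438 were missing. No per-sample column was left unused (0).

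Arrays with the sample in Cy3 were turned in sign, and each dye-swap pair was averaged to 1 value. Their depth is limited by the number of arrays. limma 3.58.1 in R 4.3.3 was fitted across all ORFs, p-values being adjusted by Benjamini and Hochberg's method and called under 0.05: a cosine of 66 min with a linear term, 0 to 15 min against 65 to 80 min, 40 to 55 min against 0 to 15 min, the cosine between cycles, and the sum of a pair for dye bias. Core and regulatory particle were compared by means without a test. The scripts were tested on simulated data. Alternatives were array centring, each replicate or time point left out, and limit values set to missing. Single arrays were also fitted with time point as a block and the replicate number as a term. Title dates as a term, a period of 60 min, no linear term and correlated errors were the others. Replicate numbers mark the dye orientation of the same RNA, so they pair arrays by design and the pair mean already holds the pairing. Within a time point the arrays correlated by 0.316. Every member could be named, with full values for the largest periodic amplitudes (up to 6 per particle), the members past each threshold, the 3 subunits least like the others, the 6 largest of the pathway list, and the 10 most alike ORFs. The members and lists, the period and the tests were chosen with earlier results of these data known. The windows of 25 to 35, 45 to 55, 60 to 70 and 90 to 100 min were chosen after the values were seen. No sequences were used.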

Additional observations from a re-analysis of the deposited data

Results flagged for a closer look

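In windows of 4 time points, 9 of 102 tested held a time point whose gap to the nearest other exceeded Dixon's 95% critical value for the gap as a share of the range. Independent windows would give about 1 in 20 by chance. These windows share arrays and are not independent, and the share over all ORFs was not computed. The count is therefore not read as a trait of these genes. At 0 min, RPT1 (0.695), RPN3 (0.424), RPN7 (0.348) and RPT4 (0.288) stood above 5, 10 and 15 min. PRE8 stood below the others at 15 min (-0.210), and RPN8 stood below at 10 min (-3.36), where 1 array lay at the deposited limit. At 80 min, PRE4 (-0.0697), RPN8 (0.0364) and RPN9 (-0.149) stood below 65, 70 and 75 min. In replicate 2, 0 min has a title date of its own, and 80 min shares one with 75 min.

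The fitted cosine differed between the first and the second cycle for 10 of 34 genes by limma's test of the interaction. The adjusted p was 0.0123 for PRE2, 0.0125 for RPN14, 0.0144 for PRE3, 0.0239 for RPN10, 0.0334 for PUP3, 0.0339 for PRE9, 0.0381 for RPT2, 0.0470 for PRE1, 0.0482 for RPT1 and 0.0487 for RPN13. The share of such genes was close to that among all ORFs, 30.4%. The part of title date, of 0 min and of 105 to 115 min in these differences was not tested apart from the alternatives given below.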

How the results depend on the processing

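Of 16 periodic members, 10 remained with lag-1 correlated errors (lag-1 correlation 0.0695), where 29.3% of all ORFs passed. Without a replicate 7 to 11 members were periodic, of which 6 and 10 were among the 16. All ORFs gave 1481 calls without replicate 1, against 2089. PRE4, PRE10, RPN12 and RPN14 were periodic in all 13 settings. The count was 11 to 20 under the other settings, 11 without 0 to 15 min (36.1% of all ORFs) and 20 with time point as a block (36.5%). In the release comparison, leaving out a replicate or a time point gave 0 to 1 members, PRE6 being called without replicate 2 and PUP1 without 0 min. Over all ORFs it gave 503 without replicate 1 and 497 to 1136 without a time point, against 965. In the first cycle, 3 members became 5 with centred arrays (19.2% of all ORFs) and 7 with time point as a block (25.9%). Leaving out a replicate or time point gave 0 to 5. Over all ORFs it gave 612 without replicate 1 and 642 to 1329 without a time point, against 1127. The difference between cycles held for 10 members, and for 1 with a period of 60 min (989 ORFs against 1886). It held for 2 to 8 without a replicate (1206 ORFs without replicate 1). With time point as a block it held for 14 (35.8% of all ORFs). The release count was 1 with time point as a block (20.6% of all ORFs). Dye bias gave 12 to 17 members against 16, where 43.3% to 49.8% of all ORFs passed. The low of 25 to 35 min was seen in 16 to 23 subunits, against 19.7% to 23% of all ORFs. The core stayed above the regulatory particle by 0.0369 to 0.0697. Using time point as a block changed no count of members by over 1.5 times other than that of the first cycle. The amplitude difference between cycles turned sign without 105, 110 and 115 min for PUP3 (0.0735), RPN13 (0.00893), RPN10 (-0.0147) and PRE5 (0.00676), and between the fits without a replicate for RPN3 (-0.135 to 0.0103), and no other call changed sign. The causes were not tested. Signal over background is not given in the values used, so its limit is unknown, and no second culture tests the course.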
